A study of Brassica napus with 2 samples.

Results

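The fatty acid desaturases of seed oil were followed in whole field-grown seeds of *Brassica napus* (oilseed rape) 26 days after pollination, an age that the sample labels count from flowering. Poly(A) RNA was sequenced from the yellow-seeded line Cy2Y (genotype *YY* at *Ecy1*, the dominant yellow seed coat locus that acts through the embryo) and from its brown-seeded near-isogenic line Cy2B (*yy*), with 1 library per line. Both lines were derived by selfing from a single heterozygous plant, and nothing in the design gives a spread between plants. The libraries held 23236549 reads on unigenes in yellow and 23575395 in brown seeds, where a unigene is a transcript cluster that the authors assembled from the reads of both lines together. Of 50366 unigenes, 28771 carried an assigned gene of the *B. napus* cv. Darmor-*bzh* annotation, whose positions are used throughout. Among these, 19 unigenes had a Swiss-Prot description of an omega-3, omega-6, delta-9 or acyl-[acyl-carrier-protein] desaturase and form the set described here. They belong to 16 assigned genes, of which 8 lie in the A subgenome, 7 in the C subgenome and 1 on an unplaced scaffold, and 18 of the 19 had at least 20 reads over both libraries.

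Desaturases place double bonds in fatty acids and so set the mix of oils that a seed stores. In the plastid, soluble acyl-[acyl-carrier-protein] (acyl-ACP) desaturases turn stearate into oleate, the first unsaturated product of fatty acid synthesis. In the endoplasmic reticulum (ER), the omega-6 desaturase *FAD2* turns oleate into linoleate and the omega-3 desaturase *FAD3* turns linoleate into alpha-linolenate, while *FAD6* and *FAD8* do the like on plastid membrane lipids. The membrane-bound delta-9 desaturases of the ADS family are known from Arabidopsis, where *ADS2* takes part in the response to cold.

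Levels are given as RPKM, the number of reads scaled to the unigene's length and to the mapped reads of the library, as deposited, and ratios are yellow over brown with reads scaled to the library totals. Each ratio is followed by its 95% interval, which is exact binomial and reflects counting error alone. A unigene was called higher or lower when the two-sided Fisher's exact test of its reads against all other reads gave a Benjamini-Hochberg adjusted p under 0.05 over all 50366 unigenes and the log2 ratio was above 1 or below -1. The test thus sets 1 library against another, without replicates of either line.

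In yellow seeds, 4 of the 19 desaturase unigenes were called higher and 0 lower, where the shares of all unigenes so called were 3.28% for higher and 1.46% for lower. The 4 were the ER omega-3 desaturase comp51078_c0 and 3 short delta-9 unigenes, comp36215_c0, comp4623_c0 and comp180153_c0. With the minimum of 20 reads, 3 of 18 members were called higher, against 2.45% of the 22247 unigenes with an assigned gene and at least 20 reads, and 0 of 18 lower, against 1.11%. Most of the remaining desaturases were also above brown seeds, by less than 2-fold. Of the 18 members, 15 had a ratio above 1, against 48.7% of those 22247 unigenes, and 12 had a ratio above 1.5, against 8.37%. These are counts of unigenes, and 3 assigned genes had more than 1 unigene, each of them with a ratio above 1.5. At a minimum of 100 reads, 11 of 17 members had a ratio above 1.5, against 4.78% of the unigenes with an assigned gene. With Fisher's exact test and a threshold of 1.5-fold, 12 of the 19 members were called higher, against 4.46% of all unigenes. The median log2 ratio of the 18 members, with 1 read added per library, was 0.69 with a range of -0.04 to 1.23, and that of the 22247 unigenes was -0.01. None of the 3 members with a ratio below 1 had an unadjusted p under 0.05 (0 unigenes by Fisher's exact test).

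**Figure D1:**
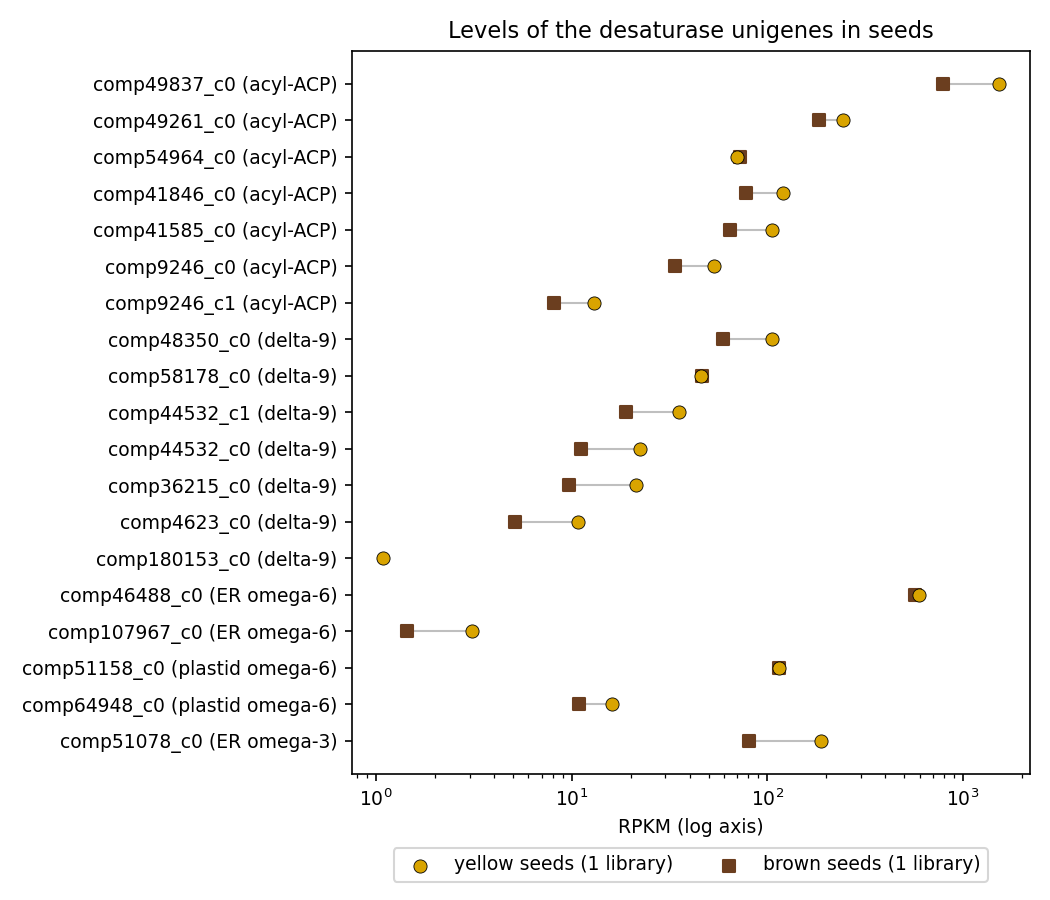
RPKM (log axis) of each of the 19 desaturase unigenes in yellow seeds (circles) and brown seeds (squares), 1 library each, grouped by enzyme class. The acyl-ACP desaturase comp49837_c0 had the highest RPKM in both libraries, and comp180153_c0 has no square because it had no read in brown seeds.

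The desaturase unigenes together held 129800 reads in yellow and 85923 reads in brown seeds, or 0.559% of the library in yellow and 0.364% in brown seeds, a ratio of 1.53 (1.52 to 1.55). Their summed RPKM was 3291 in yellow and 2150 in brown seeds. Acyl-ACP desaturases made up 64.7% of this sum in yellow and 57.0% in brown seeds, and the ER omega-6 class made up 18.2% in yellow and 26.4% in brown seeds. The ER omega-3 class made up 5.71% in yellow and 3.73% in brown seeds. The share of the ER omega-6 class was thus smaller in yellow seeds although its own level was not.

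Acyl-ACP desaturases were the most abundant class, with 7 unigenes of 5 assigned genes. Comp49837_c0 matches the *B. napus* stearoyl-ACP desaturase and was assigned to GSBRNA2T00139042001 on A03 from 9721398 to 9723662. Its RPKM was 1526 in yellow and 788 in brown seeds, from 69504 reads in yellow and 36413 reads in brown seeds. By RPKM it ranked 14th of all unigenes in yellow and 41st in brown seeds. Its ratio of 1.94 (1.91 to 1.96) lay just under the 2-fold threshold, so it was not called, and the interval lies wholly below 2. This unigene alone held 46.4% of the summed desaturase RPKM in yellow and 36.6% in brown seeds.

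The other acyl-ACP desaturases best match Arabidopsis isoforms with the numbers 5, 2 and 3. Comp49261_c0, which matches isoform 5 and was assigned to GSBRNA2T00057275001 on A01 from 22186078 to 22188155, reached 242 RPKM in yellow and 183 in brown seeds, from 7267 reads in yellow and 5562 in brown seeds, with a ratio of 1.33 (1.28 to 1.37). A pair of unigenes of 1 assigned gene, GSBRNA2T00135439001 on A10 from 13203778 to 13206767, also match isoform 5. Of these, comp41846_c0 had an RPKM of 121 in yellow and 77.9 in brown seeds, from 2313 reads in yellow and 1517 in brown seeds, a ratio of 1.55 (1.45 to 1.65). Its partner comp41585_c0 had 105 in yellow and 64.3 in brown seeds, from 2177 reads in yellow and 1346 in brown seeds, a ratio of 1.64 (1.53 to 1.76). The intervals of this pair overlap, and with their reads summed the gene had a ratio of 1.59 (1.52 to 1.67).

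In Arabidopsis, isoforms 2 and 3 are acyl-ACP desaturases of the endosperm that make omega-7 fatty acids. Comp9246_c0, which matches isoform 2 and was assigned to GSBRNA2T00076259001 on C05 from 42810488 to 42812842, stood at an RPKM of 53.5 in yellow and 33.6 in brown seeds, from 1424 reads in yellow and 905 in brown seeds, a ratio of 1.60 (1.47 to 1.74). The shorter unigene comp9246_c1 of the same assigned gene matches isoform 3 and had 94 reads in yellow and 60 reads in brown seeds, at 12.9 RPKM in yellow and 8.13 in brown seeds, a ratio of 1.59 (1.14 to 2.24). Comp54964_c0, assigned to GSBRNA2T00035326001 on C09 from 43504051 to 43507041, also matches isoform 3 but differed by no more than counting error. It had an RPKM of 70.1 in yellow and 72.0 in brown seeds, from 6171 reads in yellow and 6430 in brown seeds, a ratio of 0.974 (0.940 to 1.01). At 3788 bp it was the longest member, it was the only one of the 19 with a ubiquitin family domain, and its best nucleotide hit was a *Dsk2* (ubiquitin receptor) gene, so reads of the desaturase and of that sequence cannot be told apart in it.

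Delta-9 desaturases of the ADS family had 7 unigenes of 6 assigned genes and lower levels. Comp48350_c0, which matches *ADS1* and was assigned to GSBRNA2T00087981001 on A10 from 2130587 to 2133237, stood at an RPKM of 105 in yellow and 59.1 in brown seeds, from 3556 reads in yellow and 2025 in brown seeds, a ratio of 1.78 (1.69 to 1.88). Comp44532_c1 and comp44532_c0 were both assigned to GSBRNA2T00006373001 on A04 from 15260142 to 15261532, though the first matches *ADS1* and the other *ADS2*. Comp44532_c1 had an RPKM of 35.3 in yellow and 19.0 in brown seeds, from 961 reads in yellow and 524 in brown seeds, a ratio of 1.86 (1.67 to 2.07). Comp44532_c0 had 22.2 in yellow and 11.1 in brown seeds, from 234 reads in yellow and 119 in brown seeds, and its ratio of 1.995 (1.59 to 2.51) was just under the threshold. With TMM scaling (a trimmed mean of ratios) it passed, at 2.004. The reads of this gene summed to 1195 in yellow and 643 in brown seeds, a ratio of 1.89 (1.71 to 2.08) that did not pass.

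The delta-9 unigenes called higher in yellow seeds were short and had few reads. Comp36215_c0, which matches *ADS1* and was assigned to GSBRNA2T00031770001 on C08 from 37734403 to 37737581, had 114 reads in yellow and 53 reads in brown seeds, which is 2.18-fold (1.56 to 3.08), with an adjusted p of 2.21e-05 by Fisher's exact test. Comp4623_c0, which matches *ADS2* and was assigned to GSBRNA2T00142085001 on A03 from 6625538 to 6626944, was covered by 89 reads in yellow and 43 reads in brown seeds, which is 2.10-fold (1.44 to 3.10), with an adjusted p of 0.000674 by the same exact test. Comp36215_c0 stood at 21.2 RPKM in yellow and 9.72 in brown seeds, and comp4623_c0 at 10.7 RPKM in yellow and 5.12 in brown seeds. Both intervals reach below 2, so at this depth neither ratio can be told apart from one under the threshold. Comp180153_c0, assigned to GSBRNA2T00089751001 on A08 from 18743446 to 18744696, had 7 reads in yellow and 0 reads in brown seeds, a ratio of 2.37 with 3 reads in place of 0, and the exact 95% interval begins at 1.46. Its RPKM was 1.08 in yellow seeds, and it was called at an adjusted p of 0.0481 by the exact test.

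Delta-9 desaturase-like 5 had 2 unigenes, comp180153_c0 and comp58178_c0. The second, assigned to GSBRNA2T00145132001 on C08 from 1331059 to 1332507, stood at an RPKM of 45.7 in yellow and 46.0 in brown seeds, from 1246 reads in yellow and 1274 in brown seeds, a ratio of 0.992 (0.917 to 1.07). Of the delta-9 unigenes with at least 20 reads, it was the 1 with a ratio below 1, and the other 5 lay between 1.78 and 2.18.

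**Figure D2:**
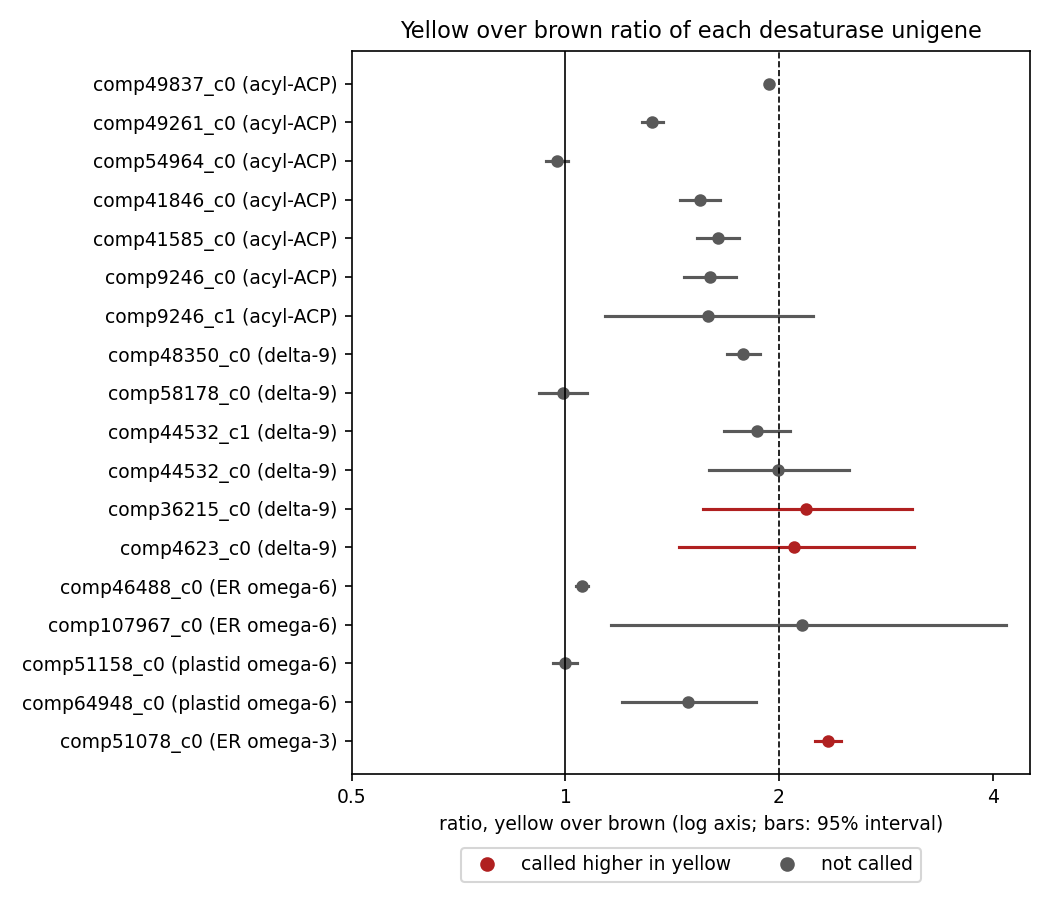
Yellow over brown ratio of the 18 desaturase unigenes with reads in both libraries (log axis), with 95% intervals for counting error alone. The solid line marks a ratio of 1 and the dashed line the 2-fold threshold, and the 3 called unigenes are drawn in red. The interval of comp51078_c0 lies wholly above 2 and that of comp49837_c0 wholly below it.

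The ER omega-6 desaturase *FAD2* makes linoleate, and its unigene comp46488_c0 differed little between the libraries. It was assigned to GSBRNA2T00111154001 on C05 from 38932197 to 38934771 and had an RPKM of 597 in yellow and 566 in brown seeds. From 21957 reads in yellow and 21095 reads in brown seeds, its ratio was 1.06 (1.04 to 1.08). The adjusted p was 3.45e-07 by Fisher's exact test, so the difference exceeded counting error although it was small. The other *FAD2* unigene, comp107967_c0, was assigned to GSBRNA2T00088406001 on an unplaced scaffold, and its best nucleotide hit was a *FAD2* pseudogene of *B. napus*. It had 34 reads in yellow and 16 reads in brown seeds, a ratio of 2.16 (1.16 to 4.18) that did not pass, with an adjusted p of 0.0635 by the exact test. Its RPKM was 3.11 in yellow and 1.44 in brown seeds. When unigenes under 20 reads were left out before the adjustment, comp107967_c0 was called. With 7 reads, comp180153_c0 was itself left out by that setting.

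The plastid omega-6 desaturase *FAD6* acts on plastid membrane lipids. Its main unigene comp51158_c0, assigned to GSBRNA2T00130387001 on C01 from 3927438 to 3929538, stood at an RPKM of 115 in both yellow and brown seeds, from 5161 reads in yellow and 5245 in brown seeds. Its ratio was 0.998 (0.961 to 1.04), or 1.003 with TMM scaling, on the other side of 1. The smaller *FAD6* unigene comp64948_c0, assigned to GSBRNA2T00062114001 on C03 from 57461415 to 57463658, had 213 reads in yellow and 145 reads in brown seeds, at 16.1 RPKM in yellow and 10.8 in brown seeds, a ratio of 1.49 (1.20 to 1.85) that did not reach 2-fold.

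The ER omega-3 desaturase *FAD3*, which makes the alpha-linolenate of seed oil, had the highest ratio of the members with at least 100 reads. Its unigene comp51078_c0 was assigned to GSBRNA2T00043495001 on A04 from 14529598 to 14532571 and was the only member of its class. It had an RPKM of 188 in yellow and 80.2 in brown seeds, from 7278 reads in yellow and 3151 reads in brown seeds. The ratio was 2.34 (2.25 to 2.44), and its rank by RPKM among all unigenes was 444th in yellow and 1368th in brown seeds. The RPKM of the main *FAD2* unigene was 3.18 times that of *FAD3* in yellow and 7.05 times that of *FAD3* in brown seeds.

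**Figure D3:**
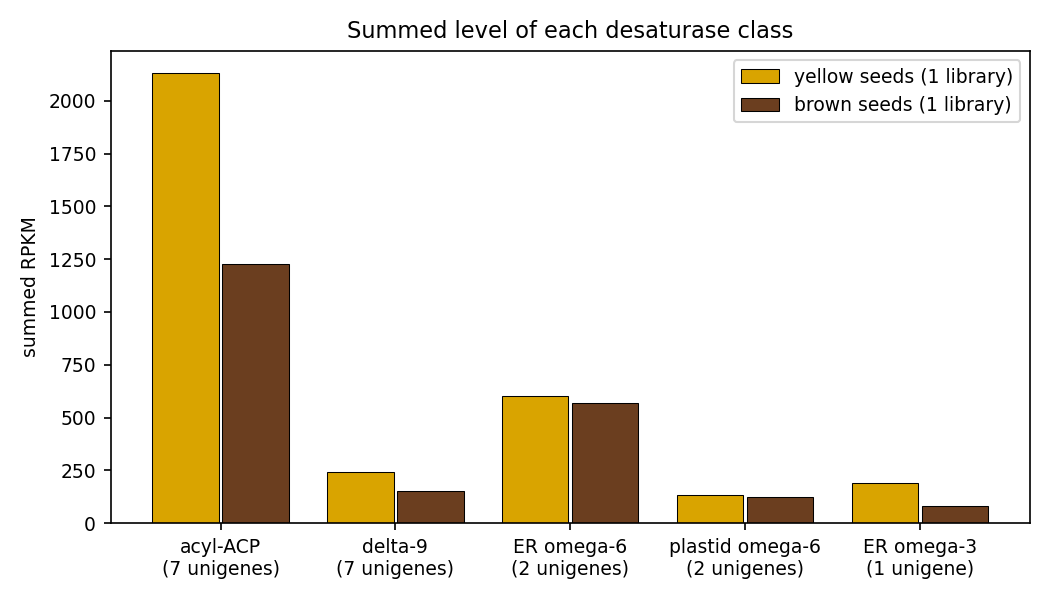
Summed RPKM of the members of each desaturase class in yellow seeds (left bars) and brown seeds (right bars), 1 library each. The acyl-ACP class stood at 2130 in yellow and 1226 in brown seeds, the ER omega-6 class at 601 in yellow and 567 in brown seeds, and the ER omega-3 unigene at 188 in yellow and 80.2 in brown seeds.

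Summed over each class, the reads gave a ratio of 1.73 (1.71 to 1.75) for acyl-ACP desaturases, 1.56 (1.499 to 1.62) for delta-9 desaturases and 2.34 (2.25 to 2.44) for the ER omega-3 unigene. The ER omega-6 class had 1.06 (1.04 to 1.08) and the plastid omega-6 class 1.01 (0.974 to 1.05). The most-read unigene of each class was compared with that of each other class by Fisher's exact test on their reads, in 10 pairs chosen after the values were seen. The ratios differed in all 10 pairs after adjustment over these pairs. The ratio of *FAD2* was 0.451 times that of *FAD3* (0.430 to 0.472), and that of the stearoyl-ACP desaturase was 0.826 times that of *FAD3* (0.791 to 0.863). The smallest differences were those between *FAD2* and *FAD6*, 1.06 times (1.01 to 1.10), and between the stearoyl-ACP desaturase and *ADS1*, 1.09 times (1.03 to 1.15). As above, these tests weigh counting error and not the spread between plants. At this depth small differences pass, and pairs of other unigenes were not compared.

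The other unigenes of a class, which match the same or a related enzyme, were set against its most-read unigene in the same way, in 13 pairs. Of these, 8 differed at an adjusted p under 0.05 by Fisher's exact test. Passing depends on the depth of the unigenes, and no share for pairs of other unigenes was computed. In the acyl-ACP class, 5 of 6 unigenes had a lower ratio than the stearoyl-ACP desaturase comp49837_c0, from 0.503 times (0.484 to 0.522) for the joined unigene comp54964_c0 to 0.847 times (0.790 to 0.909) for comp41585_c0. The sixth, comp9246_c1, was at 0.821 times with an interval of 0.587 to 1.15. In the delta-9 class, comp58178_c0 was at 0.557 times (0.506 to 0.613) the ratio of comp48350_c0. The other 4 *ADS1* and *ADS2* unigenes were at 1.04 to 1.22 times, and their intervals all held 1, the widest being 0.807 to 1.75 for comp4623_c0. The smaller *FAD6* unigene was at 1.49 times (1.20 to 1.86) the ratio of the main one, and the smaller *FAD2* unigene at 2.04 times (1.10 to 3.96) the ratio of comp46488_c0.

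Domains found in the unigenes were not used to choose them. A fatty acid desaturase domain stood beside 13 of the 19 members, among them all 7 of the acyl-ACP class and 3 of the 7 delta-9 unigenes. A rubrerythrin domain, which is a fold of soluble di-iron proteins, stood beside 5 members, all of them acyl-ACP desaturases. A domain of unknown function, DUF3474, stood beside both ER omega-6 unigenes and the ER omega-3 unigene. The 6 members without the desaturase domain were at most 568 bp long, and 3 of the 4 called unigenes were among them.

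Lists of other desaturases and of electron donors with their reductases held 0 called unigenes of 9, 10 and 9. Of all unigenes, 3.28% were called higher and 1.46% lower, so lists of this size would hold few calls at those shares. Of 9 other desaturase unigenes, the 7 with at least 20 reads had a median log2 ratio of 0.23 (range -0.20 to 0.41). They include comp45529_c0, a plastid delta-7 desaturase for galactolipids, at 62.0 RPKM in yellow and 48.8 in brown seeds, and comp8138_c0, a sterol C5(6)-desaturase, at 36.0 in yellow and 41.4 in brown seeds. Cytochrome b5 and its reductase hand electrons to the desaturases of the ER. Their 10 unigenes had a median log2 ratio of 0.03 (range -0.64 to 0.24). Cytochrome b5 isoform D (comp46139_c0) had 178 RPKM in yellow and 150 in brown seeds.

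Ferredoxins hand electrons to the desaturases of the plastid, and were listed together with the ferredoxin--NADP reductases. Of their 9 unigenes, the 8 with at least 20 reads had a median log2 ratio of 0.43 (range -0.01 to 0.65). Of these 8, 7 were above 0. Ferredoxin-2 (comp47703_c0) had 233 RPKM in yellow and 173 in brown seeds, a ratio of 1.35 (1.29 to 1.40). Leaf ferredoxin--NADP reductase 1 (comp46395_c0) had 169 RPKM in yellow and 128 in brown seeds, a ratio of 1.32 (1.27 to 1.37). The root isozyme (comp51049_c0) had 47.4 RPKM in yellow and 47.8 in brown seeds, a ratio of 0.991 (0.947 to 1.04). The enzymes that edit phosphatidylcholine, the lipid on which *FAD2* and *FAD3* act, could not be picked out by the Swiss-Prot descriptions searched and were not analysed here.

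Transcription factors of embryo maturation had 7 unigenes, with log2 ratios from -0.62 to 2.20 and a median of 0.22. Of these, 1 was called higher, where 3.28% of all unigenes were, so a list of this size would hold few calls. It was the NF-YB6 (LEC1-like) unigene comp19707_c0 with 76 reads in yellow and 16 reads in brown seeds, which is 4.82-fold (2.79 to 8.85). The larger NF-YB6 unigene comp52620_c0 had a ratio of 1.44 (1.35 to 1.53), and *ABI3* (comp50976_c0) one of 1.43 (1.35 to 1.53). *LEC2* (comp47132_c0) had the lowest ratio, 0.652 (0.567 to 0.749), with 10.7 RPKM in yellow and 16.5 in brown seeds, and *FUS3* (comp45368_c0) had a ratio of 1.17 (0.998 to 1.36). *WRI1* (comp51889_c0), a regulator of fatty acid synthesis, had 222 RPKM in yellow and 252 in brown seeds, a ratio of 0.880 (0.855 to 0.906). The unigene of bZIP67 (comp46545_c0), which acts on *FAD3* in Arabidopsis, had 73.1 RPKM in yellow and 72.2 in brown seeds, a ratio of 1.01 (0.969 to 1.06).

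**Figure D4:**
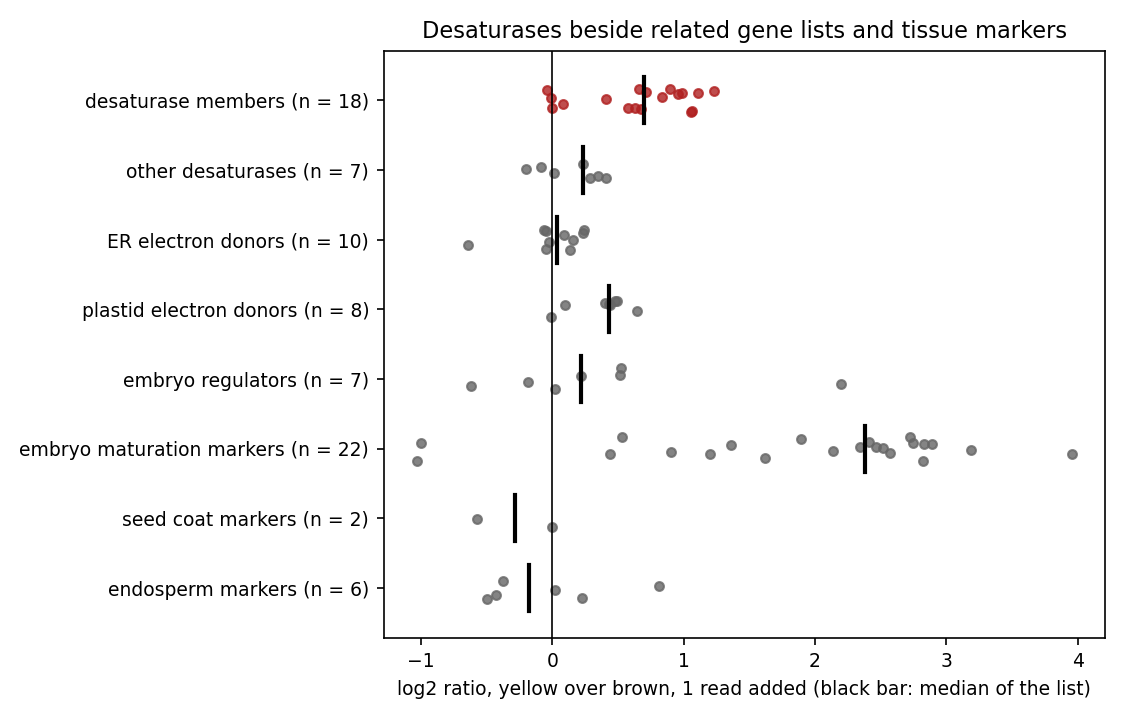
Log2 ratio of yellow over brown, with 1 read added per library, of each unigene with at least 20 reads in the desaturase set and in related lists and tissue markers. Points are unigenes and the black bars medians, at 0.69 for the desaturases, 2.38 for embryo maturation markers and 0.03 for the electron donors of the ER.

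Markers of seed tissues also differed between the libraries. Napins, cruciferins and oleosins were taken by description alone as markers of the maturing embryo, to check the tissue label. They summed to 2203 RPKM in yellow and 535 in brown seeds. Of their 24 unigenes, 17 were called higher and 2 lower, and the median log2 ratio of the 22 with at least 20 reads was 2.38. Seed coat markers had 2 unigenes and summed to 113 RPKM in yellow and 152 in brown seeds, with peroxidase 36 (comp46770_c0) at a ratio of 0.674 (0.647 to 0.701) and the mucilage beta-galactosidase 6 (comp54430_c0) at 0.997 (0.938 to 1.06). Endosperm markers had 8 unigenes and summed to 36.8 RPKM in yellow and 51.0 in brown seeds. None was called, and a list of this size would hold few calls at the shares of 3.28% and 1.46%. Of the 6 with at least 20 reads, 3 had a ratio above 1 and 3 below. The 3 unigenes of bHLH95 (ZHOUPI) had ratios from 0.708 to 0.769. The *MEDEA* unigenes with at least 20 reads had ratios from 1.01 to 1.83, at no more than 28 reads each. All *MEDEA* unigenes were at most 1.01 RPKM in yellow and 0.811 in brown seeds. No unigene with an assigned gene matched, by Swiss-Prot symbol, *RHM2*, *BIIDXI*, *PMEI6* or *FLY1* among the coat markers, or *FIS2*, *AGL62* or *ALE1* among the endosperm markers, and a coat subtilisin was not assessed because its match is shared by many subtilisins. The part of these markers in the desaturase ratios was not tested, and in whole seeds more embryo tissue and more RNA per embryo cell cannot be told apart.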

How the data were processed

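Whole seeds of 1 yellow-seeded and 1 brown-seeded line were sequenced with 1 library each, grouped by the seed coat colour in the labels. The authors removed reads with adapters, unknown bases or low quality, built unigenes from the pooled reads with Trinity and counted reads per unigene. Names of the aligner and counter were not given in the sources used here. Estimated counts were deposited unscaled and were rounded to whole numbers here. From these counts, the unigene length and the library total, the authors computed RPKM values, which were used as deposited.

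Reads were compared with Fisher's exact test, two-sided (SciPy 1.17.1, Python 3.11.15) with Benjamini-Hochberg adjustment over all 50366 unigenes. The unreplicated test gives no rate of false calls between lines. Near-identical copies of the A and C subgenomes may have been joined in 1 unigene, to which a single gene is assigned. The test was checked on counts simulated with counting error alone and planted changes larger than the 2-fold threshold. That check cannot speak to changes near the threshold or to false calls between lines. Lists were drawn from Swiss-Prot descriptions and symbols. Every member with at least 20 reads was named, and in other lists the most abundant unigenes, any called and others chosen after their values were seen. The members, lists and tests were chosen with earlier results of these data known. Alternatives were TMM (edgeR 4.0.16) and median-ratio scaling (DESeq2 1.42.0) in R 4.3.3, and the DEGseq formula of the study's method written anew. Others were edgeR's exact test with an assumed biological coefficient of variation, other thresholds, read minimums and pseudocounts, and reads summed per gene. With DEGseq at the same thresholds of fold and adjusted p, the study reported far fewer differing genes than the main test called here. The calls given here are thus not comparable with the study's list, and the rewritten formula was not checked against it.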

Additional observations from a re-analysis of the deposited data

How the results depend on the processing

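With 1 library per line the limit is the unknown spread between plants. With edgeR's exact test and an assumed biological coefficient of variation of 0.1, 2 members were called higher (comp51078_c0 and comp36215_c0), and with 0.2 or 0.4, 0 were. The adjusted p of comp51078_c0 was 8.62e-07, 0.195 and 1 at these values. With a threshold of 1.5-fold, 12 members were called higher, against 4.46% of all unigenes. The other settings called 3 to 5 members higher, with 3 for median-ratio scaling and the DEGseq formula, which left out comp180153_c0, and 5 for TMM scaling, which added comp44532_c0 (2.004). The share of all unigenes called was computed only for the main test and the 1.5-fold threshold. Counts under the remaining settings thus have no share beside them. The count called lower was 0 in every setting tried. Median-ratio scaling gave the acyl-ACP class a ratio of 1.703, just outside its counting interval. TMM scaling put comp51158_c0 at 1.003, above 1 instead of below. The log2 ratios shifted by 0.01 under TMM and by -0.02 under median-ratio scaling, and the median of the members stayed between 0.67 and 0.71. No paired analysis was possible because each line had 1 library.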

Other observations

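A plastid omega-3 desaturase also had reads, in a unigene without an assigned gene that therefore lies outside the set of 19. Comp51837_c0, 1394 bp long, best matches *FAD8*, the temperature-sensitive omega-3 desaturase of Arabidopsis plastids. It had 1692 reads in yellow and 1065 reads in brown seeds, at 52.2 RPKM in yellow and 32.4 in brown seeds. Its ratio of 1.61 (1.49 to 1.74) did not reach 2-fold and lies below the interval of the ER omega-3 unigene comp51078_c0.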
